A study of Bos taurus with 23 samples.

Results

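KIR3DL1 (ENSBTAG00000047971) and BOLA-DQB (ENSBTAG00000021077) are immune genes from families known for variation between individuals, and they are 2 of the 24616 genes counted in peripheral white blood cells (PWBC) of beef heifers. They were chosen by their read counts, because both were lower in heifers pregnant by natural breeding (NB) than in heifers pregnant by artificial insemination (AI) at station A, in earlier results from the same libraries. The outcome contrast of station A is therefore described here without a test for either gene. Outcome tests are given only for station B, whose outcomes that choice did not use. The spread of both genes between heifers was also in view at the choice, so it is described without a test.

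PWBC of 23 Angus by Simmental crossbred heifers in their first breeding season gave 1 RNA library each, from blood drawn just after AI. All heifers had received gonadotropin-releasing hormone, a progesterone insert and prostaglandin F2α to synchronise estrus before a timed insemination, and bulls were introduced later. Station A comprised 6 AI-pregnant and 5 NB-pregnant heifers. Station B comprised 6 AI-pregnant heifers and 6 without a pregnancy when the season ended (non-pregnant). Heifers are numbered within a group only as a name. Pregnancy was assigned by palpation and by the age of the conceptus, and the outcome groups had no treatment that set them apart. PWBC are a mixture of leukocytes, so fewer cells of a type and less RNA per cell cannot be told apart in these libraries.

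BOLA-DQB encodes the beta chain of the bovine MHC class II molecule DQ, which antigen-presenting cells such as B cells, dendritic cells and monocytes use to show peptides to helper T cells. The DQ genes of cattle are among the most polymorphic of the genome, and cattle haplotypes differ in how many DQ genes they carry. KIR3DL1 belongs to the killer cell immunoglobulin-like receptors, surface proteins of natural killer cells and some T cells that bind MHC class I molecules and inhibit or activate the cell. In the RefSeq annotation of the ARS-UCD2.0 assembly, BOLA-DQB lies between BOLA-DQA2 and BOLA-DQA5, which encode alpha chains, with BOLA-DQB1 next in order. KIR3DL1 lies between KIR2DL5A and KIR3DS1 in the same annotation, which holds 2 DQB genes and 5 KIR genes. The counts were made on another assembly, UMD3.1, with pairs that aligned to several places removed, so counts of genes with near-identical copies are uncertain. The part of such copies, or of alleles that differ from the assembly, in the values below was not tested.

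Libraries held 4826003 to 20434401 read pairs counted on genes, so 1 CPM, the unit of read pairs scaled to the library total, rested on 4.83 to 20.4 read pairs. In station A, 5 libraries had 58.9 to 62.6% of their pairs in the 1000 most abundant genes and the other 6 had 46.8 to 54.2%. In station B, 3 libraries stood apart at 49.0 to 49.9%, against 54.3 to 58.4% in the other 9. These are AI-pregnant heifer 3 and non-pregnant heifers 1 and 4. Markers of leukocyte classes were not checked, because none of the 37063 RefSeq genes carried an identifier of the counts. The study itself gives identifiers for its called genes, FCER1A among them, which were not used as markers here.

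BOLA-DQB ranged from nearly absent to among the most abundant transcripts. In AI-pregnant heifers of station A it had 4.07 CPM in the lowest library, a median of 281 and 618 in the highest. The 6 libraries were not spread evenly, since heifers 1, 2 and 3 had 492, 618 and 510 CPM while heifers 4, 5 and 6 had 4.07, 9.17 and 70.9. In NB-pregnant heifers of station A the values were 2.55, 87.4, 2.34, 14.6 and 12.4 CPM, all below the 3 high AI-pregnant heifers and overlapping the other 3. In AI-pregnant heifers of station B it had 0.406 CPM in the lowest library, a median of 2.69 and 32.4 in the highest. Non-pregnant heifers of station B covered nearly the same range, from 0.538 CPM through a median of 7.19 to 33.3. The means were 284 ± 285 CPM (SD, n = 6) and 23.9 ± 35.9 (SD, n = 5) in station A, and 11.7 ± 15.7 (SD, n = 6) and 11.2 ± 12.7 (SD, n = 6) in station B, in the same order of groups. In each of the 4 groups the SD was at least as large as the mean.

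Both ends of the BOLA-DQB range in station A were seen in deep libraries. AI-pregnant heifer 2 of station A had 7334 read pairs, for 618 CPM with an exact Poisson interval at the 95% level of 604 to 633, and the gene ranked 240 in its library. NB-pregnant heifer 3 of station A, with 20053283 pairs in all, had 47 on this gene, for 2.34 CPM with an interval of 1.72 to 3.12 and rank 11344. These intervals cover counting error only. The highest library exceeded the lowest 264-fold in station A, 81.9-fold in station B and 1522-fold over all 23 libraries. Within each outcome group the variance of BOLA-DQB between heifers was 144 to 2309 times that of counting alone.

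The heifers were not evenly spaced in BOLA-DQB, and the widest steps are given as a description. In station A the widest step in log2(CPM + 0.5) lay between 87.4 and 492 CPM, a 5.63-fold step with the 3 high AI-pregnant heifers above it. In station B the widest step lay between 0.993 and 4.39 CPM, 4.42-fold, with 5 heifers below and 7 above. The 5 below comprised AI-pregnant heifers 1, 5 and 6 and non-pregnant heifers 2 and 3, so both outcomes lay on both sides. No library was at 0, and the 5 low libraries held 3 to 9 pairs each. Over 1 CPM was reached in all 11 libraries of station A and in 7 of 12 in station B.

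**Figure D1:**
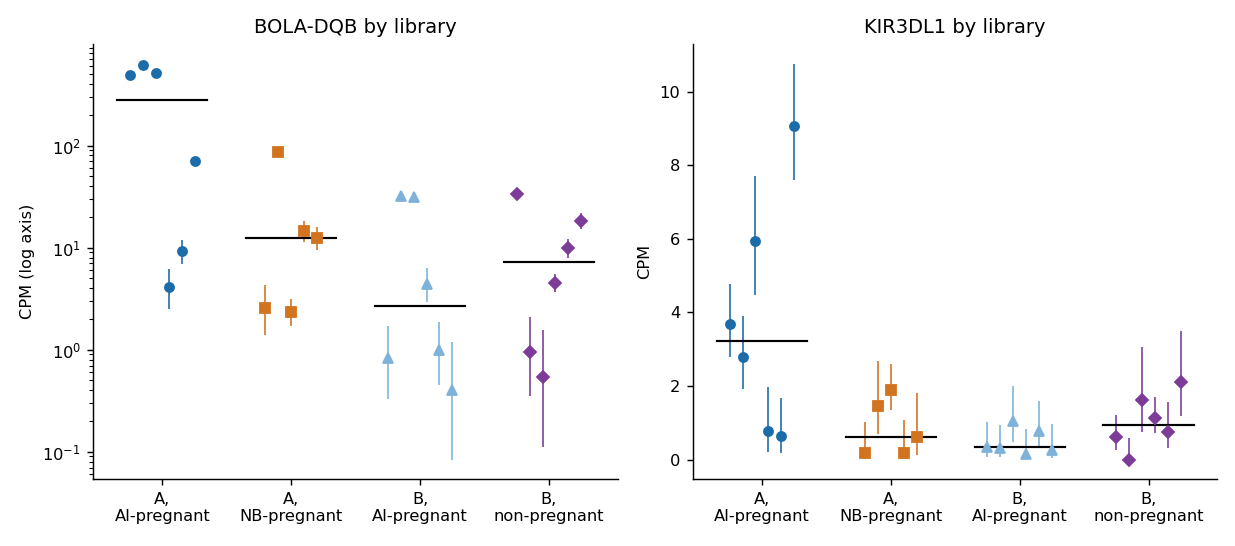
CPM of BOLA-DQB (left, log axis) and KIR3DL1 (right, linear axis) in each library by station and outcome, with points for heifers, vertical lines for exact Poisson 95% intervals and horizontal bars for group medians. AI-pregnant heifers 1, 2 and 3 of station A lie at 492 to 618 CPM of BOLA-DQB, above every other library, while KIR3DL1 exceeds 5 CPM only in AI-pregnant heifers 3 and 6 of station A.

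KIR3DL1 was a rare transcript in every heifer, and its counts were small. In AI-pregnant heifers of station A it had 0.655 CPM in the lowest library, a median of 3.23 and 9.07 in the highest. NB-pregnant heifers of station A had 0.182, 1.46, 1.89, 0.192 and 0.622 CPM, which overlapped AI-pregnant heifers 4 and 5, at 0.776 and 0.655, and lay below the other 4. AI-pregnant heifers of station B ran from 0.151 CPM through a median of 0.338 to 1.06. Non-pregnant heifers of station B ran from 0 through a median of 0.945 to 2.12. The 2 groups of station B overlapped, and 3 non-pregnant heifers, 3, 4 and 6, lay above the AI-pregnant range, at 1.61, 1.13 and 2.12 CPM. The heifer at 0 was non-pregnant heifer 2, with none of 6279629 pairs, which allows up to 0.478 CPM by a floor of 3 counts and 0.587 CPM by the exact Poisson interval.

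In all, 427 read pairs were counted on KIR3DL1, 132 of them in AI-pregnant heifer 6 of station A. The gene exceeded 1 CPM in 6 libraries of station A, the smallest number that the filter of the study allows (a gene must exceed 1 CPM in at least 6), and in 4 of station B, where it did not pass. BOLA-DQB passed in both stations. Of all genes, 49.3% passed in station A and 44.0% in station B. The variance of KIR3DL1 between heifers was 23.2 times that of counting alone in AI-pregnant heifers of station A and 4.53 times in NB-pregnant heifers. It was 1.97 times in AI-pregnant and 3.96 times in non-pregnant heifers of station B. The widest steps between neighbouring heifers were 3.25-fold, from 0.192 to 0.622 CPM, in station A and 1.74-fold, from 0.354 to 0.615 CPM, in station B. These steps rested on 1 to 8 read pairs, and both were narrower than those of BOLA-DQB.

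Per kilobase of the gene lengths behind the FPKM values, 1376 bases for BOLA-DQB and 1214 for KIR3DL1, the median level over all libraries was 7.14 CPM per kilobase for BOLA-DQB and 0.636 for KIR3DL1. BOLA-DQB was the higher of the pair in 22 of 23 libraries, and non-pregnant heifer 3 of station B was the exception. Between stations, the median BOLA-DQB level was 14.6 CPM in A and 4.47 in B, and that of KIR3DL1 was 1.46 and 0.689. Station and the handling of its libraries cannot be told apart.

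BOLA-DQB varied more than most genes of like abundance. KIR3DL1 stood high among such genes at station A, nearer their middle over all libraries, and below their median at station B. The SD of log2(CPM + 0.5) over the 23 libraries was 2.86 for BOLA-DQB, larger than in 95% of the 200 genes nearest to it in mean, whose median SD was 1.23. Among the 12807 genes over 1 CPM in at least 6 of all libraries, 239 (1.87%) had a larger SD than BOLA-DQB. In station A alone its SD was 3.01, above all 200 neighbours, of which the highest reached 1.67. In station B alone its SD was 2.09, larger than in 83.5% of neighbours. BOLA-DQB thus stood highest in the station that was used to choose it.

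For KIR3DL1 the SD was 1.09, larger than in 64.0% of its 200 neighbours, whose median was 0.88. Among the 12807 genes, 5066 (39.6%) had a larger SD. It stood above 95.5% of neighbours in station A, which was used to choose it, and 47.5% in station B. The edgeR dispersion, which takes counting error out, was 0.490 for KIR3DL1 in station A against a median of 0.161 over all genes tested, and smaller dispersions were found for 93.4% of them. The dispersion of BOLA-DQB was 1.45 at A and 1.71 at B, against a median of 0.244 in the latter. Smaller dispersions than those of BOLA-DQB were found for 99.9% and 94.0% of genes, respectively. The dispersions came from fits with outcome as a term, unlike the SDs. They stand beside genes of any abundance, not of like mean, and the part of abundance in these percentages was not tested.

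**Figure D2:**
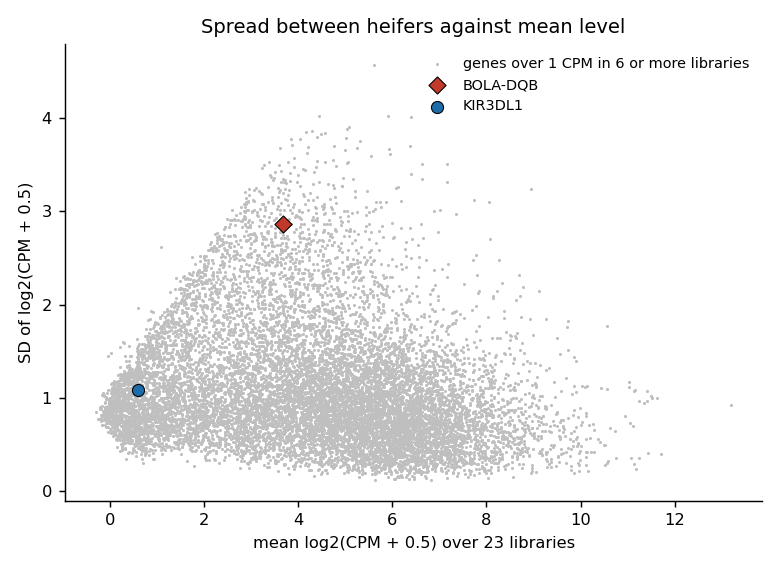
SD of log2(CPM + 0.5) over 23 libraries against the mean of log2(CPM + 0.5), with 1 grey point per gene over 1 CPM in at least 6 libraries and both genes marked. BOLA-DQB (SD 2.86) lies near the upper edge at its mean, whereas KIR3DL1 (SD 1.09) lies among the bulk of low genes.

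At station A, where the contrast had chosen both genes, the difference of means, NB-pregnant minus AI-pregnant, was -260 CPM for BOLA-DQB and -2.95 CPM for KIR3DL1. Without AI-pregnant heifer 6, which held 132 of the 340 pairs on KIR3DL1 at station A, the latter was -1.90 CPM. The log2 fold change of NB-pregnant over AI-pregnant heifers, fitted with edgeR's quasi-likelihood model and TMM factors, was -3.45 (SE 1.31) for BOLA-DQB and -1.90 (SE 0.66) for KIR3DL1. Each SE of an edgeR fold change is its absolute value divided by the square root of the F statistic. It therefore restates the test, and at station A it adds no support beyond the choice of the genes. Without factors these became -3.57 and -2.02, while the median over all genes moved from 0.01 to -0.12. The quasi-likelihood test called 0 of 12128 genes (0.0%) at an adjusted p of 0.05, with 101 at an unadjusted p under 0.05. DESeq2 called 2 genes, and neither was BOLA-DQB or KIR3DL1. The call rule of the study, which asks for an unadjusted P of at most 0.01 from an edgeR likelihood ratio test and from DESeq2, gave 18 genes (0.148%), both of these genes among them. Of these, 10 (0.0825%) were lower in NB-pregnant heifers.

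The profile of the libraries moved with both genes at station A. The 5 libraries with the higher share in the most abundant genes were AI-pregnant heifers 4 and 5 and NB-pregnant heifers 1, 4 and 5. In those 5 libraries BOLA-DQB ran from 2.55 to 14.6 CPM, and in the other 6 from 2.34 to 618. Among the 5, NB-pregnant heifers had 2.55, 14.6 and 12.4 CPM of BOLA-DQB and AI-pregnant heifers 4.07 and 9.17, so that the outcomes overlapped. Among the other 6, the NB-pregnant values of 2.34 and 87.4 CPM stood against 70.9 to 618 in AI-pregnant heifers, which also overlapped. With the first principal component of the libraries as a covariate, the log2 fold change of BOLA-DQB was -2.78 (SE 1.46).

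KIR3DL1 ran from 0.182 to 0.776 CPM in those 5 libraries, with 13 read pairs in all, and from 1.46 to 9.07 CPM in the other 6. Among the 5, the AI-pregnant heifers had 0.655 and 0.776 CPM and the NB-pregnant heifers 0.182, 0.192 and 0.622. Among the other 6, the NB-pregnant heifers had 1.46 and 1.89 CPM and the AI-pregnant heifers 2.78 to 9.07. NB-pregnant heifers were thus below every AI-pregnant heifer in both sets of libraries, as were 122 of 12128 genes (1.01%), a count that the choice of the gene leaves without further reading. In the 5 libraries the variance of KIR3DL1 was 0.853 times that of counting alone. With the covariate its log2 fold change was -1.73 (SE 0.38), in a fit that called 0 of 12128 genes at an adjusted p of 0.05.

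**Figure D3:**
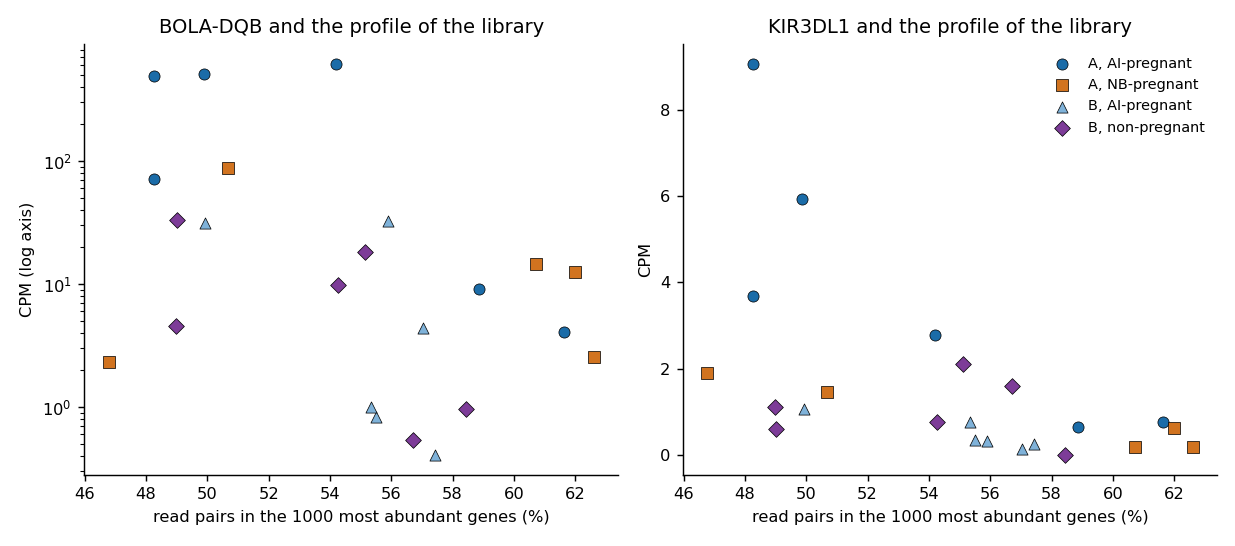
CPM of BOLA-DQB (left, log axis) and KIR3DL1 (right, linear axis) against the share of read pairs in the 1000 most abundant genes (%), with 1 point per library. Libraries of station A at 58.9 to 62.6% hold 2.55 to 14.6 CPM of BOLA-DQB and at most 0.776 CPM of KIR3DL1.

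At station B, BOLA-DQB did not differ detectably between outcomes. The difference of means, non-pregnant minus AI-pregnant, was -0.474 CPM (exact permutation test over heifers, two-sided, p = 0.968, n = 6 and 6), with a 95% interval of the difference of -17.7 to 17.9 CPM. The quasi-likelihood log2 fold change of non-pregnant over AI-pregnant heifers was -0.11 (SE 1.18, edgeR adjusted p = 0.973). Differences in CPM as large as the group means themselves lay within the 95% interval of the difference of means. The sign of the difference turned when any of 5 single heifers was left out.

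For KIR3DL1 the non-pregnant mean was 1.04 ± 0.753 CPM (SD, n = 6) and the AI-pregnant mean 0.488 ± 0.351 (SD, n = 6). The difference of 0.550 CPM, higher in non-pregnant heifers, had an interval of -0.223 to 1.31 (exact permutation test, two-sided, p = 0.136). Its direction was opposite to that of the NB-pregnant contrast at station A, and whether the contrasts differed was not tested. Without non-pregnant heifer 2, the library with no pair on the gene, the difference was 0.758 CPM (exact permutation p = 0.0390). Without non-pregnant heifer 6 it was 0.335 CPM (exact permutation p = 0.273). Without the 3 libraries that stood apart it was 0.749 CPM (exact permutation p = 0.175). In a fit without the filter, the log2 fold change was 1.04 (SE 0.73, edgeR adjusted p = 0.889), beside a median of 0.14 over the 18470 genes of that fit. The quasi-likelihood test called 0 genes at station B, in 10832 with the filter and in 18470 without it (0.0% in each), and DESeq2 called 0 with the filter, where 48 genes had an unadjusted quasi-likelihood p under 0.05. The call rule of the study gave 6 of 10832 genes (0.0554%), 1 of them lower in non-pregnant heifers (0.00923%), and BOLA-DQB was not among them.

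**Figure D4:**
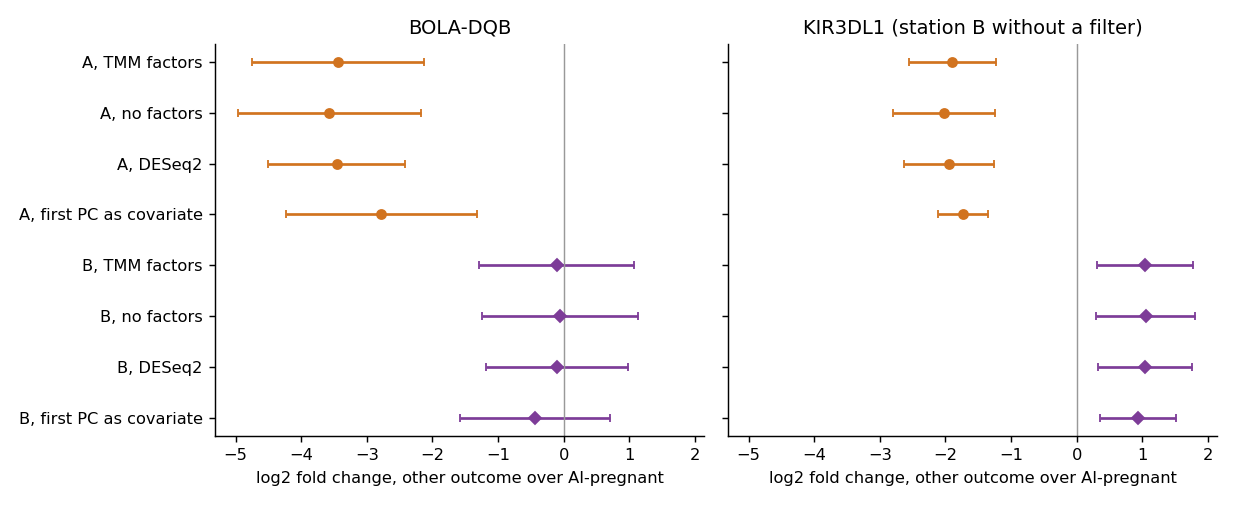
Log2 fold change of the other outcome over AI-pregnant heifers for BOLA-DQB (left) and KIR3DL1 (right), with points for estimates and bars of 1 standard error, under 4 fits for station A (NB-pregnant) and 4 for station B (non-pregnant, without the filter for KIR3DL1). Standard errors of edgeR fits are derived from the test statistic, and those of DESeq2 are its own. Station A estimates lie below 0 for both genes, and those of BOLA-DQB at station B lie within 1 standard error of 0.

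BOLA-DQB had 1 gene that followed it closely from heifer to heifer in both stations. Likeness was the smaller of the Pearson r of log2(CPM + 0.5) over the 11 libraries of station A and the 12 of station B, among 12805 genes, and all of these share the same libraries and depths. ENSBTAG00000038128 came first, with r = 0.89 in A and 0.87 in B (Spearman rho 0.82 and 0.72). Without the 2 heifers farthest from the median, r was 0.83 and 0.85. The median r of BOLA-DQB over all genes was 0.41 in A and 0.20 in B. The other 9 of the 10 most like genes, with smaller r from 0.61 to 0.73, were ENSBTAG00000011987, ENSBTAG00000047764, ENSBTAG00000018394, ENSBTAG00000001592, ENSBTAG00000019455, ENSBTAG00000010838, ENSBTAG00000016032, ENSBTAG00000021771 and ENSBTAG00000021981. Of the 10, ENSBTAG00000047764 was also called at station A by the rule of the study, so its likeness there shares that contrast.

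ENSBTAG00000038128 showed an on-off pattern in station B that BOLA-DQB only approached. It had no read pair in 5 heifers of station B, whose libraries held 5577129 to 9065316 pairs, and a floor of 3 counts is 0.538 CPM or less in each of them. These were exactly the 5 heifers in which BOLA-DQB was under 1 CPM. ENSBTAG00000038128 was named for its likeness to BOLA-DQB in these same libraries, so that match is a description and not separate support. In 6 of the other 7 heifers of station B it had at least 102 CPM, up to 205. The exception was non-pregnant heifer 4, with 4 pairs (0.196 CPM) against 93 pairs of BOLA-DQB. In station A it was present in every library, from 22.1 to 588 CPM.

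The ratio of BOLA-DQB to ENSBTAG00000038128 in read pairs was not the same in every heifer. In the 17 libraries where the latter had 10 or more pairs, the ratios fell into 3 stretches, given as a description. There were 5 libraries at 0.0215 to 0.0648 and 9 at 0.179 to 0.326, and AI-pregnant heifers 1, 2 and 3 of station A had 0.868 to 1.28. The first stretch held AI-pregnant heifer 5 and NB-pregnant heifers 1 and 3 of station A, and AI-pregnant heifer 4 and non-pregnant heifer 5 of station B. BOLA-DQB is the numerator of this ratio, so its 3 heifers at 492 CPM or more are favoured to rank high. They were the 3 with the highest ratio among these 17, while the gene most like BOLA-DQB reached 442 to 588 CPM in them.

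**Figure D5:**
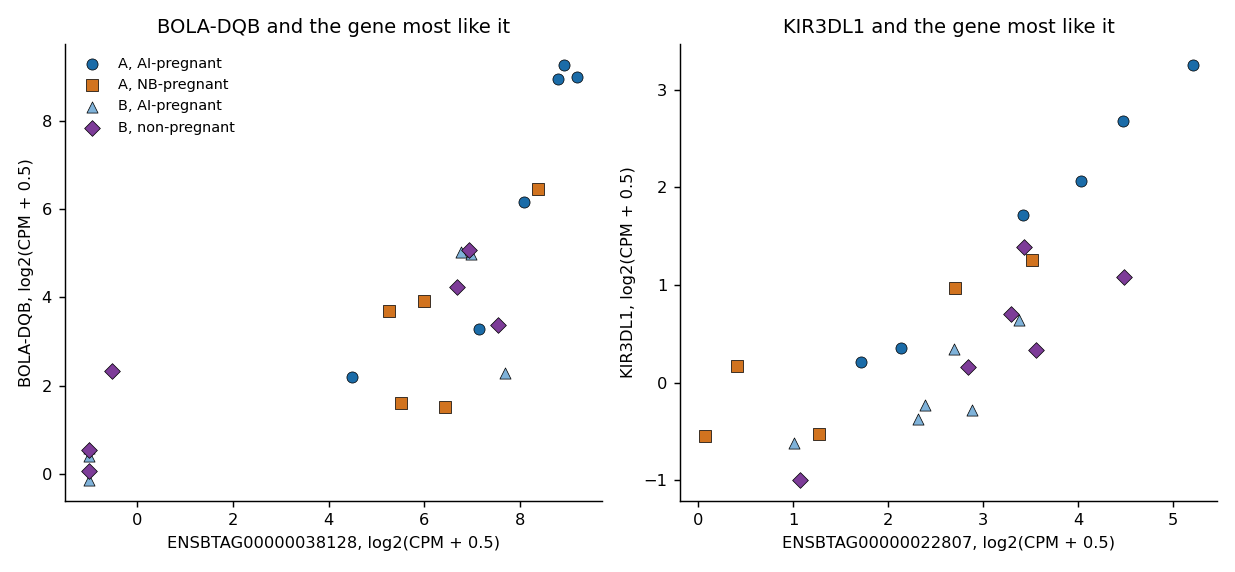
Log2(CPM + 0.5) of BOLA-DQB against ENSBTAG00000038128 (left) and of KIR3DL1 against ENSBTAG00000022807 (right), with 1 point per heifer. At the lower left of the BOLA-DQB panel lie the 5 heifers of station B with no read pair on ENSBTAG00000038128, each under 1 CPM of BOLA-DQB.

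KIR3DL1 was followed most closely by ENSBTAG00000022807, with r = 0.95 over station A and 0.87 over station B (Spearman rho 0.98 and 0.84). Without the 2 farthest heifers, r was 0.92 and 0.88. This gene was more abundant, with 0.547 to 36.5 CPM in station A and 1.51 to 21.9 in station B. It too was highest in AI-pregnant heifer 6 of station A, at 36.5 CPM. For each of its read pairs KIR3DL1 had 0.239 at station A (340 against 1422) and 0.1 at station B (87 against 870). The other 9 of the 10 genes most like KIR3DL1, with smaller r from 0.75 to 0.81, were ENSBTAG00000034493, ENSBTAG00000040144, ENSBTAG00000036111, ENSBTAG00000020663, ENSBTAG00000039871, ENSBTAG00000000784, ENSBTAG00000010890, ENSBTAG00000005455 and ENSBTAG00000016855. The median r over all genes was 0.61 in A and 0.26 in B, and the part of a profile shared by many genes in these values was not tested.

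Between BOLA-DQB and KIR3DL1, r was 0.70 at station A (Spearman rho 0.59, n = 11), where both had been chosen for the same direction, and 0.27 at station B (Spearman rho 0.20, n = 12). Without the 2 heifers farthest from the BOLA-DQB median, r was 0.62 and 0.46, and whether it differed between stations was not tested. The heifer highest in BOLA-DQB at station A, AI-pregnant heifer 2, had 2.78 CPM of KIR3DL1, and the one highest in KIR3DL1, AI-pregnant heifer 6, had 70.9 CPM of BOLA-DQB.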

How the data were processed

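Total RNA of PWBC was sequenced as read pairs from stranded mRNA libraries. The authors aligned pairs to UMD3.1, removed duplicates and pairs aligning to several places, and deposited the remaining pairs per Ensembl gene as raw counts from HTSeq. The aligner and the strand setting are not given in the sources used here. The authors also deposited FPKM of retained genes, used here only for gene lengths. CPM were computed on the library totals, 4826003 to 20434401 read pairs. Each station was fitted apart with outcome as the only term, using edgeR 4.0.16 (quasi-likelihood, TMM, Benjamini-Hochberg adjustment), with DESeq2 1.42.0 as an alternative, in R 4.3.3. Exact permutation tests over heifers and intervals by their inversion were made with scipy 1.17.1 (6 against 6 allow no p under 0.00216). The quasi-likelihood test was tried on simulated counts with 200 genes changed 4-fold. It called 140 of these 200 at station A and 92 at station B, and 6 and 2 unchanged genes. The simulated counts were drawn for each gene apart, without a library profile shared between genes. Whether the real libraries would give such rates was not tested. A count of 0 genes called therefore does not exclude changes of that size.

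The genes and lists were chosen with earlier results of these data known. Named genes are both members and, for each, the 10 most like genes. The 12 lists fixed for MHC, KIR and cell type genes (183 symbols) have no values, because the RefSeq table pairs no symbol with an identifier of the counts. Library classes were set by the share of pairs in the 1000 most abundant genes. Alternatives were other factors, filters, tools and pseudocounts, a covariate and leaving out heifers. The fold changes under DESeq2 size factors, the call rule of the study and other filters were added after seeing the data, as was the fit of KIR3DL1 without both the filter and the 3 libraries.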

Additional observations from a re-analysis of the deposited data

Results flagged for a closer look

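NB-pregnant heifer 2 of station A stood far from the other 4 of its group in BOLA-DQB, with 87.4 CPM against at most 14.6. The gap to the nearest heifer was 0.856 of the range of the group. Of 8 groups looked at, 4 for each gene, this was the 1 so marked. Chance marks about 1 in 20 where values are normally distributed. The rule was applied to CPM and not to log values, and this group had a mean of 23.9 and an SD of 35.9 CPM. The chance rate for such values was not tested. Without this heifer the log2 fold change at station A was -4.80 (SE 1.43).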

How the results depend on the processing

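At station A both genes stayed lower in NB-pregnant heifers under every alternative run that gave a value. With single heifers left out they differed by -316 to -193 CPM and log2 fold changes of -4.80 to -3.02 for BOLA-DQB, and -3.58 to -1.90 CPM for KIR3DL1, the last without AI-pregnant heifer 6. KIR3DL1 kept its place in the filter in 5 of 11 such fits, with log2 fold changes of -2.09 to -1.70. These left out AI-pregnant heifer 4 or 5 or NB-pregnant heifer 1, 4 or 5, each under 1 CPM of the gene. Leaving out any library over 1 CPM took the gene below the filter. No such fit thus gives its fold change without AI-pregnant heifer 6. At station B the BOLA-DQB difference turned to 0.41 on the log2(CPM + 0.5) scale (exact permutation p = 0.734). With 1 heifer left out it ran from -4.88 to 3.65 CPM (exact permutation p = 0.502 to 0.948). It was positive without AI-pregnant heifer 2 (3.65) or 3 (3.45) and non-pregnant heifer 2 (1.58), 3 (1.67) or 4 (0.865). The log2 fold change in those fits was 0.51, 0.50, 0.13, 0.14 and 0.04, within a range of -0.84 to 0.51 over all 12. KIR3DL1 at station B ran from 0.335 to 0.758 CPM (exact permutation p = 0.0390 to 0.273), past 0.05 only without non-pregnant heifer 2 and lowest without non-pregnant heifer 6. The spread percentile of BOLA-DQB was 97.5% with a pseudocount of 2, 75.0 by interquartile range, 100% of neighbours in station A and 83.5 in station B. That of KIR3DL1 was 54.0 with 100 neighbours, 57.0 and 87.0 with pseudocounts of 0.1 and 2, 53.0 by interquartile range, 95.5 in station A and 47.5 in station B. Genes called at station A were 2 by DESeq2, neither BOLA-DQB nor KIR3DL1 among them, and 18 by the rule of the study. At station B they were 6 by that rule and 1 without the 3 libraries that stood apart. The edgeR quasi-likelihood test called 0 genes in every fit with 1 heifer left out. At station A, 56 of 11902 to 346 of 12057 genes had an unadjusted p under 0.05. At station B, 26 of 10689 to 2233 of 10679 did, the latter without AI-pregnant heifer 3. Only that last count exceeds a share of 0.05 of the genes tested, the share taken by chance at this threshold. DESeq2 was not run on those fits. Of the 10 most like genes, Spearman rho kept 3 for BOLA-DQB and 2 for KIR3DL1, TMM scaling kept 6 for KIR3DL1, and the first was kept in each. The cause of these changes was not tested. No paired analysis was possible because the replicate numbers follow accession order and pair no heifers. KIR3DL1 rests on at most 23 pairs per library at station B, and the parts of depth and of the spread between heifers in the width of its interval were not told apart.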
